A study of Mus musculus with 4 samples.

Results

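The cells described here are tumour cells of the T11-Apobec mammary tumour model that carried the NeomycinResistanceGene transcript. They were selected on the raw counts of unique molecular identifiers (UMIs). A cell of either T11-Apobec library was taken if it had at least 2000 UMIs, at most 10% of them mitochondrial, at least 2 UMIs of NeomycinResistanceGene and at least 5 of Vim. It also had to have 0 UMIs of Ptprc, at most 1 of Csf1r, 0 of Pecam1, Cdh5 and Rgs5 together, and 0 of Epcam. These terms gave 819 cells of 30090 barcodes in all 4 libraries, 173 of 6504 in the treated library and 646 of 11304 in the untreated T11-Apobec library. They are called transcript-positive cells below, and the cells that met the same terms with 0 UMIs of NeomycinResistanceGene are called transcript-negative cells. There were 486 transcript-negative cells in the treated library and 3892 in the untreated library. The counts of NeomycinResistanceGene and Vim, and of the genes required to be absent, follow from the selection and are given as a description.

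The study examined mouse models of triple-negative breast cancer under immune checkpoint therapy, with tumour cells placed in the number 4 mammary gland of female mice. T11-Apobec tumours grew in Balbc mice and KPB25Luv tumours in FVB/NJ mice. Treated mice received antibodies to PD1 (10 mg/kg) and to CTLA4 (100 µg) biweekly once the tumour measured 5 mm across, and tumours were taken after 7 days, whereas untreated mice received no therapy. There are 4 groups, treated and untreated for both models, and every group is 1 library of dissociated whole tumour with no replicate. All comparisons are therefore of 2 libraries, or of cells within 1 library. No p-value is given, and every interval (95%, exact) covers counting error only. A difference that exceeds its interval is larger than counting error, and its size relative to the variation between tumours is unknown.

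Neomycin phosphotransferase, the product of the added gene, inactivates aminoglycoside antibiotics and is a common selection marker in engineered cell lines. It has no counterpart in the mouse genome, so its transcript marks engineered cells and their descendants, and the labels do not say which construct in T11-Apobec carries it. Transplanted mammary tumour cells lie at different distances from blood vessels. Low oxygen stabilises hypoxia-inducible factors, which switch on glycolytic enzymes, glucose transport and pH regulation. Interferon-gamma from T cells and natural killer cells acts through JAK-STAT signalling on tumour cells, where it induces guanylate-binding proteins, immunity-related GTPases, chemokines and the antigen presentation machinery.

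The promoters of leading genes of both programmes are shown first, because the hypoxia genes were higher in the transcript-positive than in the transcript-negative cells, and the interferon genes were higher in the treated than in the untreated cells. Each is the 300 bases from 250 before to 50 after the gene's start in RefSeq, on build GRCm38.p6, read 5′ to 3′ on the gene's strand. In the hypoxia genes the capitals mark the core of the hypoxia response element, the letters ACGTG, or its variant with the first base changed, GCGTG. Both strands were searched, and matches on the 2 strands can overlap. In Tgtp1 they mark the spaced repeat of the interferon-stimulated response element, the letters GAAA followed by any 2 bases and the same letters again, also searched on both strands.
Car9 (chr4:43506776-43507075, plus strand), Adm (chr7:110627407-110627706, plus strand), Ero1l (RefSeq Ero1a, chr14:45318523-45318822, minus strand), Pgk1 (chrX:106186850-106187149, plus strand) and Tgtp1 (chr11:48992197-48992496, minus strand) read as follows.
Car9: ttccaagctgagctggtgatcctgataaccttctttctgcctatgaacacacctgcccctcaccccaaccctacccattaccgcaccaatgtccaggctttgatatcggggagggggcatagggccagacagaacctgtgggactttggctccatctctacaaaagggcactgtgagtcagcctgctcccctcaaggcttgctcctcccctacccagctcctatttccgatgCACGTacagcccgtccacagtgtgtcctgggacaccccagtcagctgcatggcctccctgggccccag
Adm: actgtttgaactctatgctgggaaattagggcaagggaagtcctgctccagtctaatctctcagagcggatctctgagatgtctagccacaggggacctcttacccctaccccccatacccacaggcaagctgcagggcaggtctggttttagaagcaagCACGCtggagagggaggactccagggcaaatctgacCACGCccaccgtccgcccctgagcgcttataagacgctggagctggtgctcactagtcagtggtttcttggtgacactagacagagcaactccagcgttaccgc
Ero1l: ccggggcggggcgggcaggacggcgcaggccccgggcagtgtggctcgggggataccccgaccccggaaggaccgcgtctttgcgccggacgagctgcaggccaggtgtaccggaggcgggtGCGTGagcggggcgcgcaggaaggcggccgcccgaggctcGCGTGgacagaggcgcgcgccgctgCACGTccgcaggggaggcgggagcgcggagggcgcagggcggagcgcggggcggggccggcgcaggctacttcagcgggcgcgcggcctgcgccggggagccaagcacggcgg
Pgk1: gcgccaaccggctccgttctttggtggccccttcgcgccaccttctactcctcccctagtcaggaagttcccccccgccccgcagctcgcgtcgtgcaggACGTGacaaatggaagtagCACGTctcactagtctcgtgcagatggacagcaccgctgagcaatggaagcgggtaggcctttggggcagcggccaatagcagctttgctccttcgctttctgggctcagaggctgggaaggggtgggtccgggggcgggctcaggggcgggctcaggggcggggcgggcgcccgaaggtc
Tgtp1: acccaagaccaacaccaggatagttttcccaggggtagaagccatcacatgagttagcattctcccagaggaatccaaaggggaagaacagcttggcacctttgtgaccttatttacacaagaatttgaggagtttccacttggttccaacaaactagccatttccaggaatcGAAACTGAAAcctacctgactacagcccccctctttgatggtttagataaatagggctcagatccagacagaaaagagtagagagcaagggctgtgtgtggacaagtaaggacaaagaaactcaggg
Promoters were matched for 7 of the 8 hypoxia genes looked up, and 6 of those 7 held the core, among them Ankrd37 and Bnip3, while Apln did not. The core occurred in 43.8% of all 27025 promoters of this length, so its presence is common. For 8 interferon-response genes 3 promoters were matched, and Tgtp1 held the repeat, which occurred in 3.49% of all promoters, while Cxcl9 and Ubd did not.

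NeomycinResistanceGene was found in T11-Apobec and was listed at 0 UMIs in all 5509 treated and 6773 untreated KPB25Luv barcodes, which allows shares of barcodes with a UMI of up to 0.0545% and 0.0443%. That limit is on detection and not on cells that carry the gene, and the same selection without the transcript held 69 treated and 144 untreated KPB25Luv cells. Of the cells that met the other terms, 173 of 807 (21.4%, interval 18.7 to 24.4) were transcript-positive in the treated library and 646 of 5419 (11.9%, 11.1 to 12.8) in the untreated library. Just outside the threshold, with 1 UMI, lay 148 treated and 881 untreated cells, and just inside, with 2 UMIs, 65 treated and 319 untreated cells. The highest counts were 43 UMIs in a treated and 32 in an untreated cell, and 55 treated and 139 untreated cells had 5 or more. The libraries also differed in depth. The gate cells had a median of 22061 UMIs in the treated library and 12489 in the untreated library, and after each was thinned to 2000 UMIs the share with any UMI of the transcript was 7.19% (5.50 to 9.19) in the treated library and 7.27% (6.59 to 7.99) in the untreated library. Before thinning it was 39.8% and 28.2%, so at this depth a difference in share between treated and untreated cells was not detectable. Thinning left 13 treated and 63 untreated cells with 2 or more UMIs.

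Most carriers of the transcript met the other terms. Of all barcodes with at least 2 UMIs of it, 173 of 209 passed the whole selection in the treated library and 646 of 702 in the untreated library. Scaled to counts per 1e6 UMIs (CPM), the tumour gate held 55.3 (51.9 to 59.0) in the treated library and 43.0 (41.5 to 44.5) in the untreated library. T cells, which should lack the gene, give the background. The transcript stood at 7.99 CPM in 2013 treated and 4.52 CPM in 129 untreated T cells, with 1.54% and 1.55% of cells holding a UMI at median depths of 4742 and 3459 UMIs. In macrophages it was 1.20 CPM in the treated library and 7.03 CPM in the untreated library, and 107 treated B cells held none. Epithelial-gate cells had 0 UMIs in 49 treated cells and 22.3 CPM (12.2 to 37.4) in 65 untreated cells. After thinning, 0.397% of treated T cells held a UMI against 7.19% of tumour-gate cells, so the tumour-gate share lay above the T cell background in both measures.

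**Figure D1:**
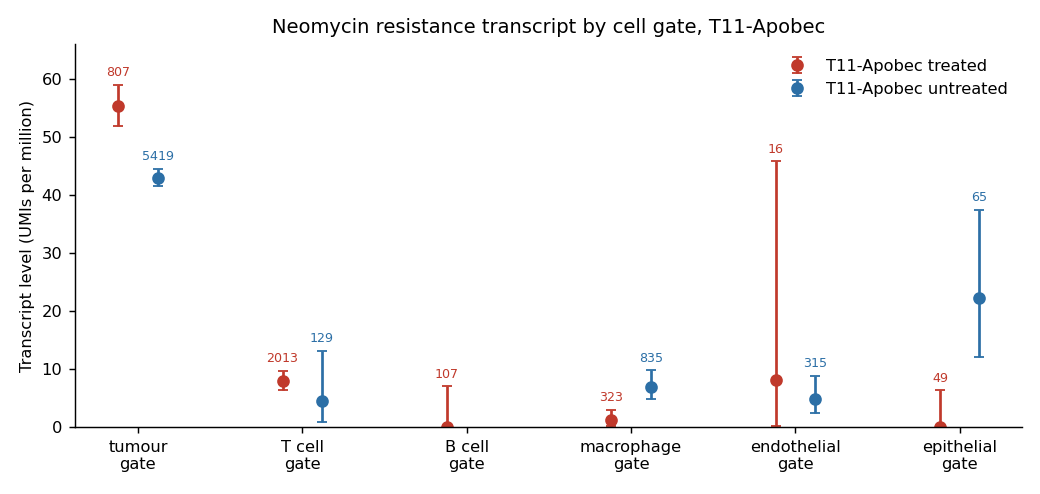
NeomycinResistanceGene level (CPM) by cell gate in the treated (red) and untreated (blue) T11-Apobec libraries, with exact Poisson 95% intervals and the number of cells above each point; gates with under 10 cells are left out. The tumour gate stands at 55.3 and 43.0 and the T cell gate at 7.99 and 4.52; the epithelial gate of the untreated library, at 22.3, has a wide interval.

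The transcript-negative cells are a mixture. In the treated library their T cell markers had a 75th percentile of 46.3 UMIs per 10000 and their macrophage markers a 95th percentile of 350 UMIs per 10000, against 0.842 and 3.56 in the transcript-positive cells. No UMI of the extracellular matrix list was found in 106 of 486 transcript-negative cells, against 0 of 173 transcript-positive cells. In the untreated library the T cell marker 75th percentile was 0.678 in transcript-positive and 1.36 in transcript-negative cells, and the macrophage marker 95th percentile 4.38 and 27.0. A cell of low depth that expresses the neomycin gene can also fall at 0 UMIs, and the transcript-positive cells were deeper, with a median of 26712 UMIs against 16613.5 in transcript-negative cells of the treated library and 12811 against 12089.5 in the untreated library. Summed over cells, the 12 macrophage markers summed to 204 CPM in transcript-positive and 1794 CPM in transcript-negative cells of the treated library, and to 313 and 721 CPM in the untreated library. The 10 T cell markers summed to 66 and 736 CPM in the treated library and 58.6 and 108 CPM in the untreated library. Where these markers move with a result, their part in it was not tested. Comparisons that turn on them are also given without cells holding over 10 UMIs per 10000 of T, NK, B, macrophage, neutrophil and dendritic cell markers, an exclusion chosen after the data were seen. It kept 170 transcript-positive and 303 transcript-negative cells in the treated library, and 632 and 3630 in the untreated library. The exclusion does not use fibroblast markers. These 12 markers summed to 551 CPM in transcript-positive and 727 CPM in transcript-negative cells of the treated library. In the untreated library they summed to 836 and 1076 CPM, and their part in the comparisons was not tested. The T11-Apobec libraries share 92 cell barcodes, to which 4 of the treated and 6 of the untreated transcript-positive cells belong, 1 of them in both. The ribosomal share of UMIs was 32.1% in transcript-positive and 27.3% in transcript-negative cells of the treated library, and 29.5% and 26.4% in the untreated library.

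Epithelial genes were at or near 0 in the transcript-positive cells, and mesenchymal transcription factors were present. Vim, which the selection used, stood at 3354 CPM in treated and 3278 CPM in untreated transcript-positive cells and supports nothing here. Of the epithelial markers, Cdh1 (E-cadherin), Krt5, Krt17, Cldn7, Elf3 and Esrp1 had 0 UMIs in both libraries. Krt8, a simple-epithelium keratin, stood at 12.7 CPM in the treated library and 20.9 CPM in the untreated cells. The transcription factors Zeb1, Twist1 and Prrx1, which drive or mark mesenchymal identity, stood at 64.5, 51.8 and 104 CPM in the treated library and 77.8, 49.2 and 105 CPM in the untreated cells. Lgals1 and S100a6, abundant in mesenchymal cells, reached 9857 and 7317 CPM in the treated cells and 8514 and 10768 CPM in the untreated cells. Of the 12 fibroblast markers, Clec3b had 0 UMIs in both libraries, and Lum and Mfap5 had 0 in the treated cells. The 12 together summed to 551 CPM in treated and 836 CPM in untreated cells. Only 6 of 173 treated and 12 of 646 untreated cells held no UMI of them. Leaving out cells with a UMI of Pdgfra, Dcn or Lum kept 119 treated and 462 untreated transcript-positive cells. Col3a1 stood at 276 CPM in the treated library and 435 CPM in the untreated cells, so collagen RNA was present in the selected cells. The endothelial genes Kdr and Cldn5 had 0 UMIs in the treated cells and stood at 0.318 and 0.212 CPM in the untreated cells. Pericyte markers summed to 43.6 CPM in treated cells and 78.8 CPM in untreated cells, neutrophil markers to 5.92 and 19.2 CPM, NK cell markers to 6.35 and 2.01 CPM, dendritic cell markers to 2.54 and 0.318 CPM, and erythrocyte markers to 0.212 and 1.48 CPM.

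Within each library, the transcript-positive cells carried a higher level of glycolysis and hypoxia genes than the transcript-negative cells. Of the 23 listed genes, 20 were higher by at least 1.5-fold and 1 was lower in the treated library, with a median log2 ratio of 0.90. In the untreated library 22 were higher and 0 were lower, with a median of 1.18. In the treated library 22 of the 23 would have passed the minimum of 50 UMIs at the level of their lower group. Of those, 19 were higher and 1 lower. The other gene, Adm, passed there only through the transcript-positive cells, where it had to be higher. Over all genes with at least 50 UMIs in the compared cells, 2.48% of 9692 were higher and 12.8% lower in the treated library, and 3.83% of 11587 were higher and 12.1% lower in the untreated library, with medians of -0.15 and -0.18. The direction of the listed genes was the same in a second library whose cells are not shared with the first, apart from Pfkp (platelet-type phosphofructokinase), which was lower at 11 against 24.7 CPM in the treated library and higher at 6.47 against 2.86 CPM in the untreated library. Slc16a3, a lactate exporter, had similar levels in the treated library (12.7 against 12.1 CPM, log2 0.07, an interval of -0.42 to 0.54 that includes 0) and was higher in the untreated library (15.3 against 4.73 CPM).

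The genes of pH regulation and hypoxic signalling showed the largest ratios. Car9, a membrane carbonic anhydrase, stood at 156 CPM in transcript-positive and 19.5 CPM in transcript-negative cells of the treated library, and at 118 and 18.7 CPM in the untreated library, log2 ratios of 2.99 (2.75 to 3.25) and 2.66 (2.53 to 2.79). It was detected in 82.1% of transcript-positive and 14.6% of transcript-negative treated cells, and in 56.0% and 13.9% of the untreated cells. Adm, which encodes the vasodilator adrenomedullin, stood at 19.0 against 2.02 CPM in the treated library and 16.8 against 1.26 CPM in the untreated library, log2 3.19 (2.48 to 4.08) and 3.71 (3.30 to 4.17). Both genes were thus higher in the transcript-positive cells of each library, and Adm was a low transcript. Ero1l, an oxidase that supports disulfide formation in the endoplasmic reticulum, stood at 149 against 25.4 CPM in the treated library and 140 against 21.1 CPM in the untreated library. Ndrg1, a stress-responsive gene, stood at 207 against 46.3 CPM in the treated library and 319 against 38.2 CPM in the untreated library. Apln, an angiogenic peptide, and Ankrd37, a hypoxia-induced ankyrin-repeat gene, completed the 6 highest genes by the rule for named genes, with log2 ratios of 2.72 and 2.06 in the treated library and 2.51 and 2.88 in the untreated library.

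The glycolytic enzymes themselves were abundant in both kinds of cell and differed by smaller ratios. Pgk1 (phosphoglycerate kinase) stood at 2289 against 816 CPM in the treated library and 1704 against 610 CPM in the untreated library, log2 1.49 (1.44 to 1.53) and 1.48 (1.45 to 1.51). Gapdh stood at 3439 against 1801 CPM in the treated library and 2765 against 1387 CPM in the untreated library. Ldha, which turns pyruvate into lactate, stood at 1761 against 1024 CPM in the treated library and 1867 against 987 CPM in the untreated library. All 3 enzymes were detected in every transcript-positive cell of both libraries. The glucose transporter Slc2a1 stood at 98.4 against 33.4 CPM in the treated library and 164 against 30.0 CPM in the untreated library, and the mitophagy receptor Bnip3 at 199 against 55.5 CPM and 212 against 35.7 CPM. Vegfa, the vascular growth factor, had a smaller ratio in the treated library (log2 0.70) than in the untreated library (1.76), a difference that was not tested. In the plot of glycolysis and hypoxia genes, Adm, Car9, Ndrg1 and Ankrd37 had the 4 largest ratios in both libraries, and Pfkp lay apart from the other enzymes in the treated library.

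**Figure D2:**
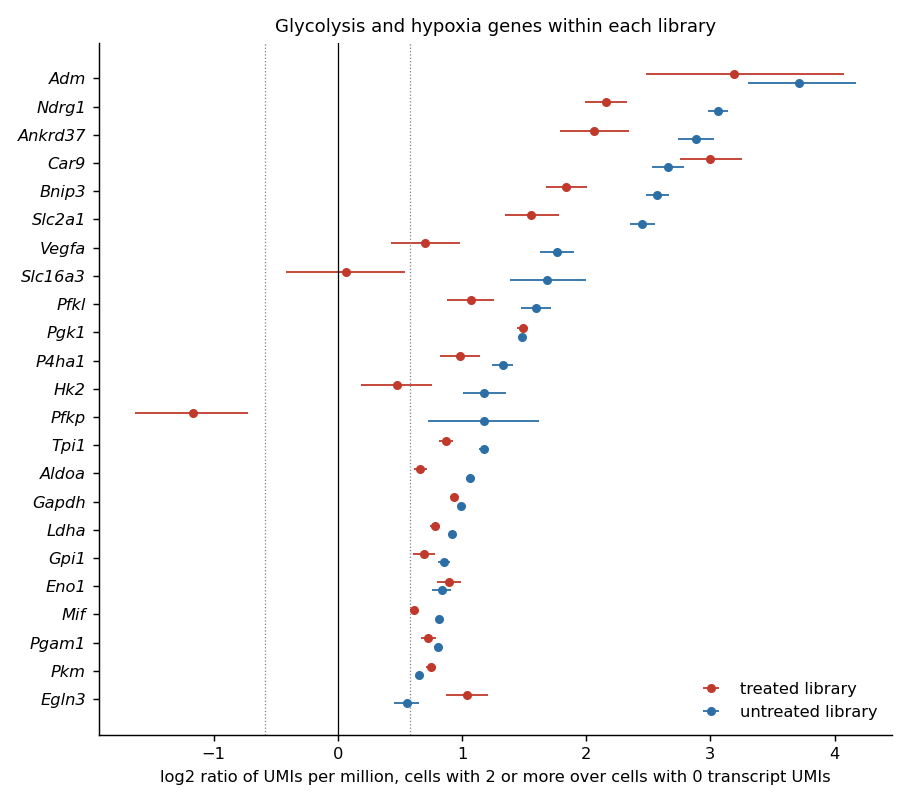
log2 ratio of CPM in transcript-positive over transcript-negative cells for the 23 glycolysis and hypoxia genes, in the treated (red) and untreated (blue) T11-Apobec libraries, with exact 95% intervals for counting error; dotted lines mark 1.5-fold. Adm, Ndrg1, Ankrd37 and Car9 lie above 2 in both libraries, and Pfkp is the only gene below the lower line, at -1.16 in the treated library.

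The level of the list followed the number of transcript UMIs in a cell. Summed over its 23 genes it was 9687, 11178, 14082, 16832 and 23170 CPM in treated cells with 0, 1, 2, 3 to 4 and 5 or more UMIs of the transcript. In untreated cells with the same UMI numbers it was 7806, 10508, 13446, 16277 and 20605 CPM. Cells with 1 UMI, which lie outside the selection, thus fell between the transcript-negative and transcript-positive cells in both libraries. Per cell, transcript-positive cells had a median of 171 list UMIs per 10000 against 87.1 in transcript-negative cells of the treated library, and 156 against 69.6 in the untreated library. The distributions overlap: the 5th percentile of transcript-positive cells was 88.0 in the treated library and 74.4 in the untreated library, and the 95th percentile of transcript-negative cells was 192 and 142. Among the transcript-positive cells the rank correlation of list level and transcript level was 0.62 over 173 treated and 0.48 over 646 untreated cells. Both levels are divided by the same UMI total, and the transcript level also fell with depth (rank correlations of -0.56 in the treated library and -0.66 in the untreated cells), so these values are a description. With transcript-positive and transcript-negative cells weighted to equal UMI bins, 22 of 23 genes were higher in each library, with medians of 0.91 in the treated library and 1.39 in the untreated library. Without the cells of high immune marker level, 21 of 23 were higher in the treated library and 22 in the untreated library, with medians of 1.02 and 1.32.

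**Figure D3:**
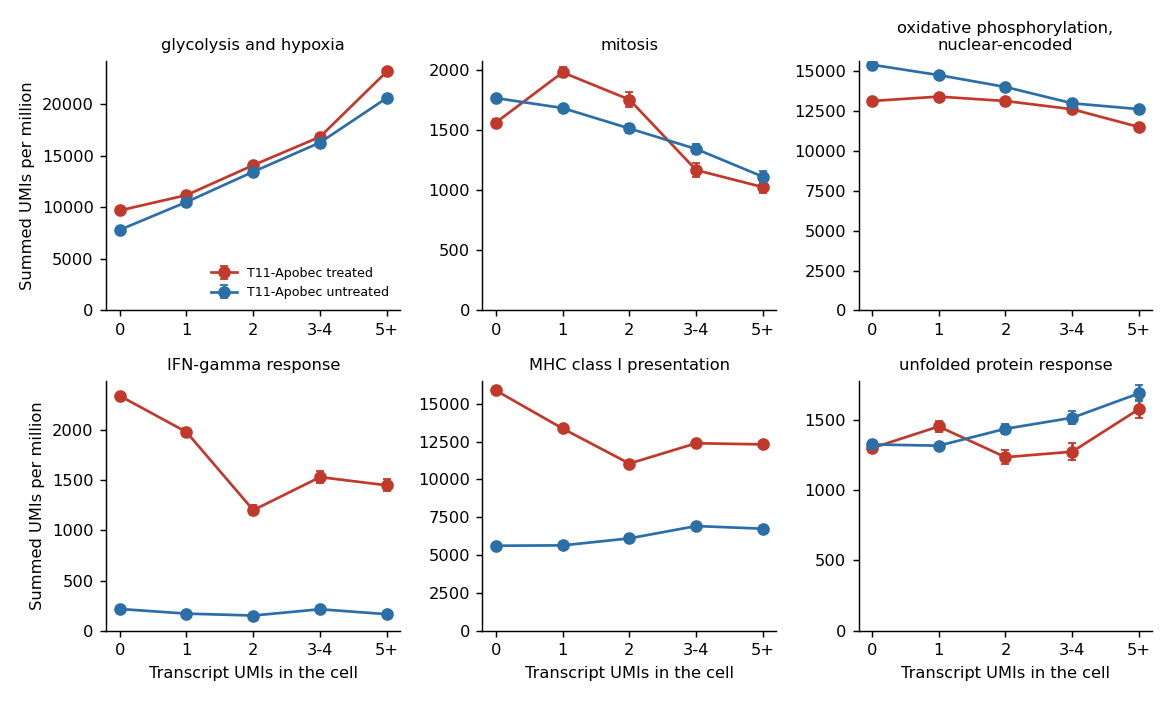
Summed level of 6 gene lists (CPM) in tumour-gate cells by their number of NeomycinResistanceGene UMIs, in the treated (red) and untreated (blue) T11-Apobec libraries, with exact Poisson 95% intervals. Glycolysis and hypoxia runs from 9687 to 23170 in the treated library and from 7806 to 20605 in the untreated library, while mitosis is lowest at 5 or more UMIs in both, at 1026 and 1113.

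Stress genes differed in both directions. Of the immediate early and heat shock genes 2 were higher and 6 lower of 16 in the treated library (median -0.49), and 6 higher and 4 lower of 17 in the untreated library (median -0.07). Of the 16, 15 would have passed the UMI minimum at the level of their lower group, 2 higher and 5 lower. Hspb1, a small heat shock protein (chr5:135887919-135889563, plus strand, GENCODE M21), stood at 30.7 against 8.91 CPM in the treated library and 276 against 36.2 CPM in the untreated library. Cdkn1a, the cell cycle inhibitor p21, stood at 90.3 against 36.3 CPM in the treated library and 75.8 against 20.6 CPM in the untreated library. In the list of the unfolded protein response, 5 of 12 genes were higher and 1 lower in the treated library, and 4 higher and 1 lower in the untreated library, with medians of 0.13 and 0.23. The transcription factors Ddit3 and Atf4 of the integrated stress response were higher in both, Ddit3 at 88.4 against 43.6 CPM in the treated library and 83.4 against 28.8 CPM in the untreated library. The chaperones Hspa5 and Hsp90b1 were not, with log2 ratios of -0.48 and -0.47 in the treated library and -0.12 and 0.04 in the untreated library. Ddit3, Atf4 and the pseudokinase gene Trib3 were higher by at least 1.5-fold in both libraries. Asns (asparagine synthetase) and Chac1 passed it in the treated library, and Dnajb9, a co-chaperone, in the untreated library. Sdf2l1, of the endoplasmic reticulum, was lower in both.

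Genes of mitosis were lower in transcript-positive cells of the untreated library, where 7 of 20 were lower by at least 1.5-fold and 0 were higher (median log2 -0.51). In the treated library 2 of 20 were lower and 0 higher (median -0.28), a share near that of all genes lower there (12.8%). Mki67, a marker of cycling cells, stood at 18.4 against 27.7 CPM in the treated library and 17.6 against 28.6 CPM in the untreated library. Birc5, which encodes survivin, stood at 140 against 164 CPM in the treated library and 125 against 197 CPM in the untreated library. The summed mitosis list was lowest in cells with 5 or more transcript UMIs, at 1026 CPM in treated and 1113 CPM in untreated cells, against 1563 and 1768 CPM in transcript-negative cells. In treated cells with 1 UMI it was higher, at 1982 CPM, so the order was not monotonic there. DNA replication genes had medians of -0.13 in the treated library and -0.25 in the untreated library, close to the all-gene medians. Nuclear-encoded oxidative phosphorylation genes had medians of -0.13 and -0.21, with 0 of 24 past 1.5-fold in the treated library and 1 lower in the untreated library.

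Interferon-gamma-response genes and part of the class I genes were lower in transcript-positive than in transcript-negative cells of the treated library. Of 21 measured interferon-gamma-response genes, 18 were lower by at least 1.5-fold and 0 higher (median log2 -0.84). In the untreated library, where the levels were low, 8 of 18 were lower and 0 higher (median -0.47). At the level of their lower group, 19 of the 21 would have passed the UMI minimum in the treated library, 16 of them lower. In the untreated library 16 of the 18 would have passed, 6 of them lower. The others passed only through the transcript-negative cells, where they had to be higher. Ubd, a ubiquitin-like modifier, stood at 103 against 238 CPM, and Iigp1, an immunity-related GTPase, at 258 against 494 CPM in the treated library. H2-D1, a class I heavy chain, stood at 2496 against 3827 CPM in the treated library and 877 against 813 CPM in the untreated library. Of 22 class I genes 10 were lower in the treated library and 1 in the untreated library. Immune markers were higher in the transcript-negative cells, as given above. Without the cells of high immune marker level, 16 of 20 interferon-gamma-response genes were lower in the treated library (median -0.83), beside 805 of 9197 over all genes. Of the class I genes 4 of 22 were then lower, against 10 before, so most of that count was not kept. At equal UMI bins 11 of 21 interferon-gamma-response genes were lower (median -0.61).

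All 8 measured class II genes were lower in transcript-positive cells of both libraries, with medians of -1.38 in the treated library and -1.54 in the untreated library. In the untreated library 7 of the 8 would have passed the UMI minimum at the level of their lower group. H2-Aa and H2-Ab1, the chains of the class II molecule I-A, stood at 293 and 188 CPM in transcript-positive cells, against 811 and 578 CPM in transcript-negative cells of the treated library. In the untreated library they stood at 24.2 and 20.9 CPM, against 81.3 and 63.6 CPM. Without the cells of high immune marker level, 7 of 8 were lower in the treated library (median -0.83) and 0 of 7 in the untreated library (median -0.04), so the untreated count was not kept without those cells. The other genes lowest by the rule for named genes were Cxcl14 (a chemokine, also in the fibroblast marker list), Igfbp7 (a secreted binding protein), Cd52 and Srgn. The last pair is abundant in leukocytes. In the treated library Cxcl14 and Igfbp7 passed the UMI minimum only through the transcript-negative cells. Igfbp7 was found in 6.17% of treated and 10.6% of untreated transcript-negative cells. Cd52 stood at 36.4 against 490 CPM in the treated library and 8.06 against 24.8 CPM in the untreated library. Cxcl14 stood at 0.635 against 24.1 CPM in the treated (3 against 203 UMIs, log2 -5.09, interval -7.54 to -3.68) and at 1.80 against 33.8 CPM in the untreated library, and it was found in 6.17% and 6.14% of transcript-negative cells.

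The remaining lists are given by their counts, beside 12.8% of all genes lower in the treated library, and 12.1% in the untreated one. Of the extracellular matrix genes 0 were higher and 5 of 21 lower in the treated library, and 2 higher and 2 lower of 23 in the untreated one. Col1a1, a fibrillar collagen chain, was lower in both. The mesenchymal list had medians of -0.01 and 0.02. Among chemokine genes 1 was higher and 5 of 12 lower in treated cells, and 3 higher and 4 of 13 lower in untreated cells. Of the 12, 11 would have passed the UMI minimum at the level of their lower group, 1 higher and 4 lower. Among complement genes 0 were higher and 6 of 8 lower in treated cells, and 1 was higher and 3 of 6 lower in untreated cells, with medians of -1.38 and -0.68. At the level of their lower group, 6 of the 8 and 5 of the 6 would have passed, with 4 and 2 lower. Type I interferon-response genes split, with 2 higher and 5 lower of 15 in treated cells and 3 higher and 4 lower of 19 in untreated cells. Of the 19, 18 would have passed at the level of their lower group, 3 higher and 3 lower. The checkpoint list had 3 higher and 4 lower of 11 in treated cells, and 1 of each in untreated cells. Of the 11, 9 would have passed at the level of their lower group, 2 higher and 3 lower. Pvr, a ligand of the receptors TIGIT and CD226, was the gene higher in both, at 47.4 against 25.2 CPM in treated cells and 51.6 against 30.3 CPM in untreated cells. JAK-STAT genes were lower for 4 of 14 in treated cells and for 0 in untreated cells. Of the p53 list, Cdkn1a was higher in both libraries, with 2 higher and 1 lower of 12 in treated cells and 3 higher and 0 lower of 13 in untreated cells. Deaminase and repair genes were lower for 2 of 14 in treated cells, a share near that of all genes, and for 4 of 16 in untreated cells, Apobec1 in both.

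Over all genes tested in both libraries (9567), 239 were higher in the treated library and 281 in the untreated library, and 120 in both, which is 50.2% of the first and 42.7% of the second set. Lower genes numbered 1129 and 791, with 375 in both (33.2% and 47.4%). These splits depend on the scale. Among genes past 1.5-fold, 16.2% were higher in the treated library and 24.0% in the untreated library, and under median-of-ratios scaling 28% and 40.7%.

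The main comparison of the study, treated over untreated, gave large differences within the transcript-positive cells. Among 9367 genes with at least 50 UMIs, 585 (6.25%) were higher and 813 (8.68%) lower by at least 1.5-fold, with a median log2 ratio of -0.06. Without mitochondrial and ribosomal genes in the total, 52.7% of genes past the fold were higher, against 41.8% here. In transcript-negative cells 11.2% of 11788 genes were higher and 7.95% lower. All 18 measured interferon-gamma-response genes were higher in treated transcript-positive cells, with a median of 3.31, and all 21 in transcript-negative cells, with a median of 4.04. Of the 18, 13 would have passed the UMI minimum at the level of their lower group, and the other 5 passed only through the treated cells, where they had to be higher. The same holds for 3 of the 22 class I and 1 of the 8 class II genes described below. In transcript-negative cells 18 of the 21 interferon-gamma-response genes would have passed at the level of their lower group. These comparisons use the same libraries, so their values are given side by side and are not independent. Without cells of high immune marker level, 18 of 18 interferon-gamma-response and 19 of 22 class I genes were higher in treated transcript-positive cells, and 16 of 21 matrix genes were lower.

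The interferon-gamma-response genes with the largest ratios encode chemokines, GTPases and their regulators. Cxcl9, a chemokine that attracts T cells, stood at 85.9 CPM in treated and 1.27 CPM in untreated transcript-positive cells (406 and 12 UMIs), log2 6.0 (5.26 to 7.04). It was found in 19.1% of treated and 1.08% of untreated cells. Gbp4, a guanylate-binding protein, stood at 70.4 against 1.17 CPM, log2 5.83 (5.06 to 6.93), in 46.2% of treated and 1.70% of untreated cells. Cxcl9 RNA thus lay in a minority of the treated cells, and Gbp4 in nearly as many with a UMI as without. Tgtp1, a T cell-specific GTPase by name, had 63 UMIs in treated and 0 in untreated cells. It was at least 41.9-fold higher against 3 counts over the untreated cells. Cxcl9, Gbp4 and Tgtp1 passed the UMI minimum only through the treated cells, so their direction was fixed by the minimum. Iigp1 stood at 258 against 10.6 CPM (log2 4.59, 4.31 to 4.91) and Ubd at 103 against 4.03 CPM (log2 4.65, 4.2 to 5.19). Ly6a, which encodes the surface protein Sca-1, stood at 409 against 15.2 CPM (log2 4.75, 4.51 to 5.01) and was found in 79.8% of treated and 10.1% of untreated cells. Reads of the Gbp and Tgtp families can be shared between near-identical members, so the values of single members are uncertain.

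The signalling chain showed a selective pattern. The receptor genes Ifngr1 and Ifngr2 stood at 51.0 and 82.9 CPM in treated and 54.8 and 103 CPM in untreated cells, log2 -0.10 and -0.31. The kinase genes Jak1 and Jak2 had log2 ratios of -0.24 and 0.05. Of the 14 genes of receptors and JAK-STAT signalling 3 were higher and 0 lower, with a median of -0.03, beside 6.25% of all genes higher. At the level of their lower group, 13 of the 14 would have passed the UMI minimum, 2 of them higher. Among the higher ones, Stat2 stood at 11.6 against 3.50 CPM (1.71) and Irf9 at 16.7 against 8.06 CPM (1.05). Stat2 passed the minimum only through the treated cells, so its direction was fixed by the minimum. The feedback inhibitor Socs1, kept in the interferon-gamma list, stood at 41.5 against 17.8 CPM (1.22). Type I interferon-response genes were higher for 11 of 15 and lower for 1, with a median of 0.91. Of the 15, 13 would have passed at the level of their lower group, 9 higher and 1 lower. Ifit1 was the lower one, at 9.10 against 16.8 CPM (-0.88), whereas Bst2 (tetherin) stood at 205 against 40.2 CPM (2.35).

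Antigen presentation genes were higher in treated cells for both classes. Of 22 class I genes 19 were higher and 1 lower, with a median of 1.52. The immunoproteasome subunits Psmb8 and Psmb9 stood at 685 and 248 CPM in treated and 147 and 38.2 CPM in untreated cells, log2 2.22 (2.13 to 2.31) and 2.70 (2.53 to 2.87). B2m, the shared light chain, was already abundant and stood at 6036 against 3872 CPM (0.64). H2-D1 stood at 2496 against 877 CPM (1.51) and H2-K1 at 686 against 313 CPM (1.13), although class I genes are similar enough to share reads. The lower gene was Calr, which encodes the chaperone calreticulin, at 266 against 405 CPM (-0.61). The transactivator Nlrc5 stood at 9.31 against 2.44 CPM (1.90), and it passed the UMI minimum only through the treated cells.

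Of 8 class II genes 7 were higher and 1 lower, with a median of 3.57. Cd74, the invariant chain, stood at 915 against 31.3 CPM (log2 4.87, 4.70 to 5.05) and was found in 89.0% of treated and 15.6% of untreated cells. Ciita, the class II transactivator, had 75 UMIs in treated and 1 in untreated cells (log2 6.50, 4.70 to 12.55). It passed the UMI minimum only through the treated cells, so its direction was fixed by the minimum. The lower gene was Ctss, a cathepsin that is abundant in macrophages, at 18.4 against 27.9 CPM (-0.60). Without cells of high immune marker level 7 were higher and 0 lower (median 4.76). B cell RNA also differed between the libraries. Igkc, an immunoglobulin light chain that tumour cells should lack, stood at 54.8 CPM in treated and 0.848 CPM in untreated transcript-positive cells, with a UMI in 72.3% and 1.24% of cells, and the 8 B cell markers summed to 63.0 and 6.57 CPM. Treated T cells, which should also lack it, held 78.1 CPM of Igkc and 256 CPM of Cd74. Cd74 was thus higher in the transcript-positive cells than in T cells of the same library, while Igkc was lower. The ratio of Cd74 to Igkc UMIs was 16.7 in treated transcript-positive cells, 3.27 in T cells, 0.191 in B cells and 215 in macrophages. Treated macrophages held 14631 CPM of Cd74 and 8399 CPM of H2-Aa, and the part of macrophage RNA in the class II values was not tested. Lyz2, a macrophage transcript, stood at 110 CPM in treated transcript-positive cells, 165 CPM in treated T cells and 24310 CPM in treated macrophages. Ubd stood at 103 CPM in treated transcript-positive cells, against 23.3 CPM in T cells, 18.3 CPM in macrophages and 9.60 CPM in B cells. Gbp4 went the other way, at 70.4 CPM against 115 CPM in T cells and 99.5 CPM in macrophages. Ly6a stood at 409 CPM in treated transcript-positive cells, against 380 CPM in T cells and 580 CPM in macrophages, and Iigp1 at 258 CPM against 77.6 and 236 CPM. For Cxcl9 the treated macrophages held more, 745 CPM against 85.9 CPM in the transcript-positive cells and 8.77 CPM in T cells.

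**Figure D4:**
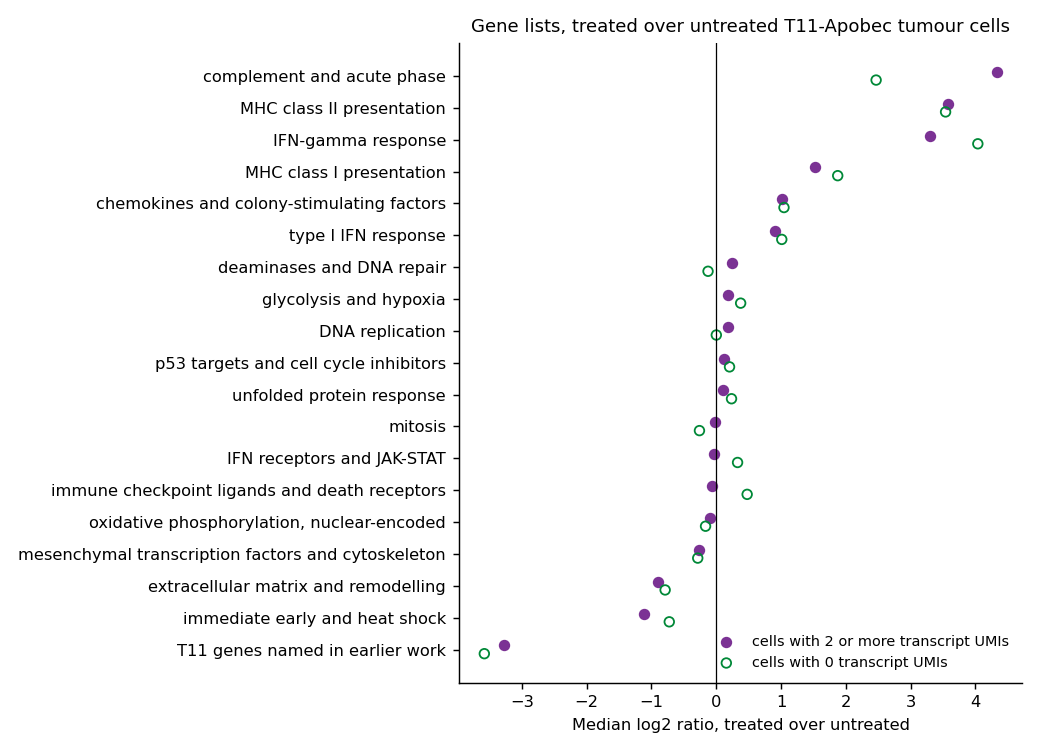
Median log2 ratio of treated over untreated T11-Apobec cells for 19 gene lists, in transcript-positive (filled) and transcript-negative (open) cells; the lists hold 3 to 24 measured genes. The interferon-gamma and class II lists stand at 3.31 and 3.57 in transcript-positive cells, and extracellular matrix and immediate early genes at -0.90 and -1.11.

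Chemokine and colony-stimulating factor genes were higher for 8 of 11 and lower for 0, with a median of 1.01. Of the 11, 9 would have passed the UMI minimum at the level of their lower group, 6 of them higher. The others passed only through the treated cells, where they had to be higher. Ccl5 stood at 404 CPM in treated and 70.4 CPM in untreated cells (log2 2.52), while treated T cells held 1662 CPM. Ccl2, which attracts monocytes, stood at 131 against 45.6 CPM (1.52), Csf1 at 64.7 against 34.1 CPM (0.92) and Cxcl1, a chemokine for neutrophils, at 56.9 against 62.3 CPM (-0.13). Of the complement list 3 of 11 genes reached the UMI minimum, and C3 and C1s1 reached it only through the treated cells, so their direction was fixed by the minimum. The values were C3 with 49 against 3 UMIs (log2 4.75, 3.39 to 7.35), C1s1 at 18.4 against 0.848 CPM (4.33) and Cp, ceruloplasmin, at 165 against 79.8 CPM (1.04). Of the ligands and death receptors related to checkpoint therapy, 1 of 10 was higher and 0 lower. That gene was Lgals9, at 8.88 against 4.67 CPM (0.92). Cd274, the ligand PD-L1 of the receptor that one of the antibodies blocks, was too low for the minimum, with 9 UMIs in treated and 4 in untreated cells. Cd80 and Cd86, the ligands of CTLA4, had 1 and 3 UMIs in treated and 3 and 10 in untreated cells.

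Extracellular matrix genes were lower in treated transcript-positive cells, 16 of 21 by at least 1.5-fold and 0 higher, with a median of -0.90. Col1a1 stood at 41.7 CPM in treated and 117 CPM in untreated cells (log2 -1.49) and Postn (periostin) at 13.8 against 56.3 CPM (-2.03). The fibronectin gene Fn1 stood at 927 against 1489 CPM (-0.68). Lox, which crosslinks collagen, did not follow, at 39.1 against 35.9 CPM (0.12, interval -0.14 to 0.39). Acta2, smooth muscle actin, stood at 35.3 against 147 CPM (-2.06) and Tagln at 8.46 against 34.5 CPM (-2.02), while the mesenchymal list as a whole had 1 gene higher and 3 lower of 19. Of the 19, 17 would have passed the UMI minimum at the level of their lower group, 1 higher and 2 lower. Among the 8 lowest genes by the rule for named genes were the matrix genes Aspn (asporin), at 5.92 against 52.8 CPM, and Sparcl1, at 0.846 against 9.97 CPM. Sparcl1 passed the UMI minimum only through the untreated cells. Fibroblast markers summed to 551 CPM in treated and 836 CPM in untreated transcript-positive cells, and their part in this result was not tested. With cells holding a UMI of Pdgfra, Dcn or Lum left out, 19 of 21 matrix genes were lower (median -1.04).

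Immediate early and heat shock genes were lower for 14 of 17 and higher for 0, with a median of -1.11. Of the 17, 15 would have passed the UMI minimum at the level of their lower group, 12 of them lower. The others, Hspa1a among them, passed only through the untreated cells, where they had to be higher. Fos stood at 92.7 CPM in treated and 264 CPM in untreated cells (log2 -1.51) and Btg2 at 14.0 against 56.5 CPM (-2.01). Hspb1 was the lowest by the rule for named genes, at 30.7 against 276 CPM (-3.17, -3.42 to -2.93), found in 8.67% of treated and 42.9% of untreated cells. Hspa1a had 2 UMIs in treated and 105 in untreated cells (-4.50, -7.78 to -2.83), whereas in transcript-negative cells its log2 ratio was 2.31. These genes are known to respond to tissue dissociation, and handling of the tumours cannot be told apart from treatment with 1 library a group. The remaining lowest genes were Tnni1, Ptn, Jup (plakoglobin), Rgs2 and Ms4a7, the last a macrophage marker at 0.846 against 9.33 CPM. Of these, Tnni1, Ptn and Ms4a7 passed the UMI minimum only through the untreated cells.

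Glycolysis and hypoxia genes, which set the transcript-positive cells apart within each library, differed little between treated and untreated transcript-positive cells. Of 23 genes 2 were higher and 3 lower, with a median of 0.18. The 2 higher genes were Eno1, at 374 CPM in treated and 200 CPM in untreated cells (log2 0.91), and Pfkp (0.76). The 3 lower genes were Vegfa, at 43.4 against 73.8 CPM (-0.77), Slc2a1, at 98.4 against 164 CPM (-0.74), and Ndrg1, at 207 against 319 CPM (-0.63). DNA replication genes had a median of 0.18 with 0 of 20 past 1.5-fold, and mitosis genes a median of -0.01 with 1 higher (Top2a, 110 against 72.2 CPM) and 1 lower (Plk1, 8.46 against 13.7 CPM). Oxidative phosphorylation genes had 0 higher and 1 lower of 24 (Ndufa4), and the p53 list 1 higher of 12 (Trp53) and 0 lower. The unfolded protein response list split, with 3 of 12 higher, among them Trib3 at 73.0 against 31.8 CPM, and 3 lower, among them Hspa5 at 232 against 354 CPM.

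The model's name refers to a deaminase, and the mouse deaminase genes were measured. Apobec3 stood at 37.0 CPM in treated and 24.6 CPM in untreated transcript-positive cells (log2 0.59, 0.30 to 0.88) and Apobec1 at 10.6 against 4.14 CPM (1.34, 0.72 to 2.00). Apobec2 had 0 UMIs in both. Of the 14 deaminase and repair genes measured 5 were higher and 1 lower. At the level of their lower group, 13 of the 14 would have passed the UMI minimum, 4 higher and 1 lower. The values are those of the mouse genes in the table, and the labels do not say which deaminase the model carries. Mest, Ptn, Tnni1 and Bmp8a, 4 genes taken from earlier results on these same libraries, were all lower in treated cells, with a median of -3.27, which is no independent evidence. At the level of their lower group 0 of the 4 would have passed the UMI minimum. They passed only through the untreated cells, so their direction was fixed by the minimum. Tnni1 had 3 UMIs in treated and 112 in untreated cells (-4.08, -6.53 to -2.64).

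The treated transcript-positive cells varied widely in their interferon response. Per cell, the interferon-gamma list had a 5th percentile of 0.509, a median of 5.44 and a 95th percentile of 49.4 UMIs per 10000. In untreated transcript-positive cells the same percentiles were 0, 0.963 and 5.27, and 176 of 646 cells held no UMI of the list, against 6 of 173 treated cells. The treated cells were deeper, with a median of 26712 against 12811 UMIs, so the counts of cells at 0 are not at equal depth. The treated 25th percentile, 1.78, lay below the untreated upper quartile of 1.83. The untreated 95th percentile, 5.27, lay just below the treated median of 5.44, so the overlap reached nearly to that median. Treated transcript-negative cells had a median of 13. The class I list was less spread, with a median of 110 UMIs per 10000 in treated and 63.0 in untreated transcript-positive cells. Within the treated transcript-positive cells the interferon-gamma and class I levels had a rank correlation of 0.56 over 173 cells that share 1 library, and the interferon-gamma and transcript levels one of -0.07.

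**Figure D5:**
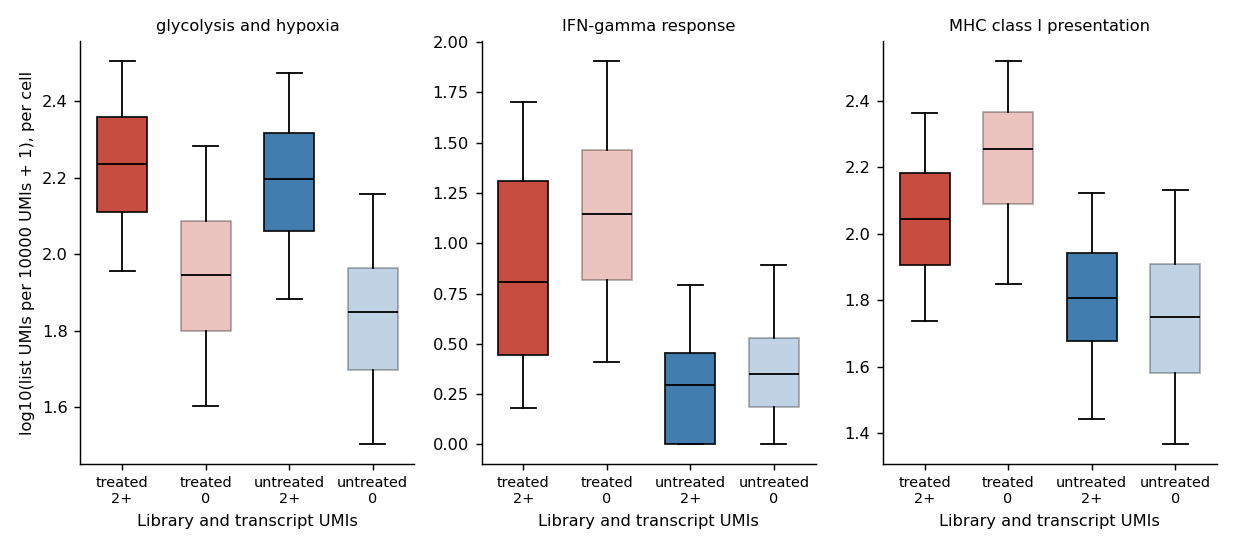
List UMIs per 10000 UMIs per cell, as log10 of the value plus 1, for 3 gene lists in transcript-positive (2+, dark) and transcript-negative (0, light) cells of the treated (red) and untreated (blue) T11-Apobec libraries; boxes span the quartiles with the median, and whiskers the 5th to 95th percentiles. Glycolysis and hypoxia is higher in transcript-positive cells of each library (medians 171 against 87.1 and 156 against 69.6), and the interferon-gamma list is higher in treated cells (medians 5.44 against 0.963 in transcript-positive cells).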

How the data were processed

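Dissociated whole tumours were sequenced with 10x 3' v2 chemistry, per the labels' protocols. The deposited values are raw UMI counts per gene and barcode, made by the authors with Cell Ranger 3.0.2, per the file headers, on mm10, per the submitters' processing notes. The table holds 31054 features, the added neomycin gene among them. Cells were kept from 2000 UMIs and up to 10% mitochondrial UMIs, with no doublet removal except as an alternative.

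Counts were summed over the cells of a group within a library and divided by the group's total to give CPM. log2 ratios added 0.5 counts to each sum. Intervals were exact Poisson for CPM, Clopper-Pearson for shares and exact conditional for ratios, at 95%. Genes with at least 50 UMIs over the 2 groups compared were counted as higher or lower from 1.5-fold. How many list genes would pass that minimum at the level of their lower group was counted after the data were seen. With 1 library per group there was no test. A gene at 0 was set against a floor of 3 counts over the group. The calculation was tested on simulated data.

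The cells, the 19 programme lists and the 12 marker lists (441 genes, 3 of them absent from the table) were chosen with earlier results of these data known. Named genes were the 8 on each side of treated over untreated, and the 6 on each side of transcript-positive over transcript-negative in both libraries, ranked by the interval end nearest 0, with at least 50 UMIs and 5% of cells in the higher group. To these came 2 to 4 members of each list by UMIs or ratio, the therapy targets' ligands, the deaminases and 4 genes of earlier results. Further list members named were chosen after their values were seen. Alternatives varied the UMI thresholds, depth, scaling, gene minimum and excluded cells. The tools were scanpy 1.11.5, anndata 0.12.19, matplotlib 3.10.9, pandas 2.3.3, scipy 1.17.1 and numpy 2.4.6, in Python 3.11.15. Some genes of the lists are not reported here.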

Additional observations from a re-analysis of the deposited data

Results flagged for a closer look

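The macrophage marker list moved in opposite directions in the 2 kinds of cell. Its median log2 ratio of treated over untreated was -0.94 in transcript-positive cells, over 9 measured markers, and 1.09 in transcript-negative cells, over 12. Neither direction held throughout: the median was 0.48 in transcript-positive cells with at least 5 transcript UMIs, and -0.11 in transcript-negative cells without those of high immune marker level. The difference was not tested, since each group is 1 library.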

How the results depend on the processing

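No paired analysis was possible because each group is 1 library, and for the same reason no replicate could be left out. Among the counts, shares and levels that answer a comparison, 220 recomputed values stayed within the limits set for no change and 53 moved.

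The share of transcript-positive gate cells was 39.8% in the treated library, against 28.2% in the untreated one, at 1 UMI, 13.4% and 6.03% at 3, 6.82% and 2.57% at 5, and 1.61% and 1.16% after thinning to 2000 UMIs. In the treated library it was 25.1% with at least 10 Vim UMIs and 27.6% without cells of high immune marker level. After thinning, the transcript stood at 48.3 CPM in treated and 44.7 CPM in untreated tumour-gate cells, and at 2.24 CPM in treated T cells.

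The number of genes tested differs between settings, so it is given beside each count over all genes. Between transcript-positive and transcript-negative cells of the treated library, genes higher numbered 454 of 9201 tested at 5 UMIs. They numbered 373 of 9692 under median of ratios and 634 of 9692 with equal cell weight. At gene minimums of 10 and 200 UMIs they numbered 465 of 12119 and 104 of 5905, and without any immune marker UMI 58 of 924. Genes lower numbered 2444 of 9201 at 5 UMIs, 619 of 3291 after thinning, and 2276 of 12119 and 425 of 5905 at those minimums. They numbered 171 of 924 without any immune marker UMI and 805 of 9197 without cells of high immune marker level. Interferon-gamma-response genes lower numbered 11 at 1 UMI, 9 of 15 after thinning, 11 at equal UMI bins and 1 of 1 without any immune marker UMI. Glycolysis and hypoxia genes higher numbered 13 at 1 UMI and 11 of 13 without any immune marker UMI. In the untreated library genes higher numbered 243 of 11781 at 1 UMI and 820 of 11441 at 5. At minimums of 10 and 200 they numbered 798 of 13641 and 265 of 9686. Genes lower numbered 680 of 11781 at 1 UMI, 2476 of 11496 at 3 and 3556 of 11441 at 5. They numbered 935 of 11587 under median of ratios, and 2353 of 13641 and 775 of 9686 at those minimums.

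For treated over untreated transcript-positive cells, genes higher numbered 220 of 3685 tested after thinning and 352 of 4360 without any immune marker UMI. At minimums of 10 and 200 they numbered 1174 of 11643 and 225 of 5886, and genes lower 1393 and 411. Interferon-gamma-response genes higher were 4 of 4 measured after thinning and 3 of 4 without any immune marker UMI, and class I genes 8 of 13 and 10 of 13. Glycolysis and hypoxia genes lower numbered 1 at 5 UMIs and 1 without cells holding Pdgfra, Dcn or Lum.

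These medians, some of them of 1 gene, changed sign. Macrophage markers treated over untreated were at 0.48 at 5 UMIs in transcript-positive cells, over 4 markers. In transcript-negative cells they were at -0.11 without cells of high immune marker level, over 11 markers. Complement genes in transcript-positive over transcript-negative treated cells were at 0.35 after thinning, with 1 gene measured. Epithelial markers treated over untreated in transcript-negative cells were at 0.085 at a minimum of 10, over 5 markers. Without any immune marker UMI, type I interferon genes were at -0.051 in treated over untreated transcript-positive cells, over 4 genes. T and B cell markers were then at -1.69 and -6.82 in transcript-negative cells, each with 1 gene measured. With the same exclusion, macrophage markers were at 0.015 in transcript-positive over transcript-negative untreated cells, over 5 markers. That exclusion left 10 transcript-positive and 12 transcript-negative treated cells, and thinning and stricter minimums leave fewer genes to count. The cause of the other changes was not tested.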
